A study of Mus musculus with 15 samples.

Results

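The replication-dependent histone genes supply the core and linker histones that package newly copied DNA. They were taken here as the genes of the value table whose symbol belongs to the H1f1 to H1f6, H2ac, H2bc, H3c or H4c series, or to the older Hist series. Only array rows with a single symbol in the platform annotation were used, and the row with the highest mean stood for a gene. The rule found 26 genes among the 22180 genes of the table: 5 for the linker histone H1, 6 for H2A, 8 for H2B, 7 for H4 and 0 for H3. Of these, 21 lie in the large histone cluster on chromosome 13 and 5 in the smaller cluster on chromosome 3.

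The mRNAs of these genes differ from other mRNAs in their end: they carry no poly(A) tail and stop at a short stem-loop, which is bound by the stem-loop binding protein Slbp. They build up when a cell enters S phase and are degraded when DNA synthesis stops. In the cerebellum of a newborn mouse the granule neuron progenitors are the main dividing population, so histone mRNA is often read there as a mark of cells in S phase. The copies of a family are close to identical, and RNA from one copy can bind the probes of another, so a value for a single copy is uncertain. In whole dissociated tissue, fewer cells of a type and less RNA per cell cannot be told apart.

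The 15 libraries form 3 labelled groups of 5, all on a C57BL/6 background and given as postnatal day 1 in 1 label and day 2 in another. In the double knockout (DKO, labelled GSK-3 DKO) both isoforms of the kinase Gsk-3, alpha and beta, are deleted in cerebellar granule neuron progenitors. The Math1-Cre control carries Cre from the Math1 (Atoh1) promoter with Gsk3a +/- and both Gsk3b alleles floxed, so that only the beta isoform is deleted. The no-Cre control carries the same Gsk3a +/- and floxed Gsk3b alleles without Cre and counts as intact; the label of its replicate 5 does not mention Gsk3b. Both controls therefore share the heterozygous Gsk3a allele, and Cre acts only in cells with an active Math1 promoter. Each library came from whole cerebella of 1 replicate, enriched for progenitors on a density gradient, and the study asked what deletion of Gsk-3 changes in these progenitors. The labels name no litters. A p-value here thus measures only how these samples spread, and that spread may be technical. Their number limits the precision.

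The row annotated to Gsk3a, which it shares with a transcript inside that gene, went against the label in 4 libraries. It read 9.47 in DKO 1 and 9.37 in DKO 3, near the 9.42 to 9.59 of the no-Cre controls, and 8.25 and 8.03 in Math1-Cre 1 and 2, near the 7.89 to 8.27 of the other DKO libraries. Which part of Gsk3a was removed is not given in the sources used here. Gsk3b read 10.59 to 10.98 in every library, and what its row checks depends on the deleted part. Each comparison is therefore given over all 15 libraries and again over the 11 that remain without these 4, and no library was moved to another group. All 8 granule progenitor markers were above background in every library, but so were 7 of 7 endothelial markers, 5 of 5 Purkinje cell markers and the choroid plexus gene Ttr (12.47 to 12.89), so other cells were present. The arrays of DKO 3, 4 and 5 and of no-Cre 4 had a narrower spread of values than the rest (interquartile range 3.43 to 3.56 log2 units against 3.73 to 3.85).

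The 200 bases before the annotated start of 7 of the genes are printed from the RefSeq table of GRCm38.p6. They are the 5 genes that passed a test in at least 1 comparison, the linker gene with the widest difference (H1f1), and H4c9, the H4 copy above background with the narrowest difference. Capitals mark the letters of the CCAAT box, TATAAA (the letters of a TATA element), the octamer ATTTGCAT and the H1 box AAACACAAA, wherever they stand. Both strands were searched, so ATTGG in capitals is a CCAAT box read from the other strand. On the plus strand of chromosome 13 are H1f1 (chr13:23763468-23763667), H2ac10 (chr13:23533675-23533874), H2bc3 (chr13:23746534-23746733) and H4c17 (chr13:21811546-21811745). On its minus strand are H2bc9 (chr13:23543445-23543644) and H4c9 (chr13:22041363-22041562), and H2bc18 (chr3:96269500-96269699) is on the plus strand of chromosome 3.
H1f1: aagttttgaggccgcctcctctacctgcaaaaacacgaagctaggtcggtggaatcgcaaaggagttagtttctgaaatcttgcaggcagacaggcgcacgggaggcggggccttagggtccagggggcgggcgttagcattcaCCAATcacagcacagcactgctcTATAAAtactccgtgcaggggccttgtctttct
H2ac10: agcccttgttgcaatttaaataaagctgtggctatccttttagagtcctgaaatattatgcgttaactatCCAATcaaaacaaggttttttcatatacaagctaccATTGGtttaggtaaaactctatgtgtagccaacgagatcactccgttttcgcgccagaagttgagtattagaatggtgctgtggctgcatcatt
H2bc3: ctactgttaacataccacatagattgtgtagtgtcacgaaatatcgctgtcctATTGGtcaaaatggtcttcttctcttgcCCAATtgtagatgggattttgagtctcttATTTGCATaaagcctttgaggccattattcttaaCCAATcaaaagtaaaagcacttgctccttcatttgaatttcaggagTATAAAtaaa
H2bc9: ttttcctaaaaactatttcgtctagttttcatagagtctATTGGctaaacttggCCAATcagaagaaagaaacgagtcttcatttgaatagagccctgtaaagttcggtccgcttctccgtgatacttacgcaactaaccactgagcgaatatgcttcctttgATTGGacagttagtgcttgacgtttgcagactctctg
H2bc18: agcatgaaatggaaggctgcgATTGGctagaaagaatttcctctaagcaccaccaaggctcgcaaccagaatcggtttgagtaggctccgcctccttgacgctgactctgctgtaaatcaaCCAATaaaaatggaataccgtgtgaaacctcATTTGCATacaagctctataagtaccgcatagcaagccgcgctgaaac
H4c17: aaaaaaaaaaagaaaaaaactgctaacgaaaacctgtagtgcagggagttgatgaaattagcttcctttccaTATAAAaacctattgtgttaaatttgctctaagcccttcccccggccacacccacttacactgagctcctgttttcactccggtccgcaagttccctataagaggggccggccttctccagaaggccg
H4c9: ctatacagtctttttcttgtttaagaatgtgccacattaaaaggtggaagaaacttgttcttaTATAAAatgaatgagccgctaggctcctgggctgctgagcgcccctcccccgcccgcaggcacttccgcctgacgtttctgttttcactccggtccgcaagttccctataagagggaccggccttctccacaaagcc
The histone promoters were rich in CCAAT, with the H4 genes as the exception. Over the 250 bases before the start, 24 of the 26 genes had a promoter in the table, and CCAAT stood in 5 of 5 H1, 6 of 6 H2A, 7 of 7 H2B and 1 of 6 H4 promoters, beside 33.8% of all 32851 promoters of that length. The octamer ATTTGCAT, known from H2B promoters, stood in 3 H2A and 5 H2B promoters and in 0 of the others, beside 1.6% of all promoters. The octamers of H2ac1 and H2bc1 are the same site, and so are those of H2ac12 and H2bc12. These genes start from opposite strands of a shared stretch, so motifs in it, CCAAT included, were counted for both. TATAAA stood in 13 of the 24 beside 12.4%, counted at any position and on either strand. It began 33 bases before the start in H1f1, but 128 in H4c17, 137 in H4c9 and 10 in H2bc3. AAACACAAA, known from H1 promoters, stood in 1 H1 and 1 H2B promoter beside 0.642%. No 2 different motifs overlapped. H4c17 and H4c9 both lack CCAAT and the octamer, and their printed stretches share an identical run of 38 bases that starts 60 bases before the start of H4c17. The motifs are matches of letters, and their use in these cells was not measured.

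About as many histone genes could be read clearly as could not. Background was set on each array at the 95th percentile of 1394 olfactory and vomeronasal receptor genes, which ran from 4.65 to 5.58 on the log2 expression scale. Above it in all 15 libraries were 13 of the 26 genes: H1f1, H1f2 and H1f5; H2ac10, H2ac15 and H2ac21; H2bc3, H2bc12, H2bc18 and H2bc21; and H4c9, H4c12 and H4c17. At background in all 15 were 9: H1f6, H2ac1 and H2bc1, which are known for expression in the testis, with H2ac12, H2bc22, H4c1, H4c2, H4c8 and H4c14. The other 4 were above it in some libraries: H2bc14 in 9, H2bc9 in 7, H2ac20 in 6 and H1f3 in 4. Levels of different genes were read by different probes and are not set against each other.

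**Figure D1:**
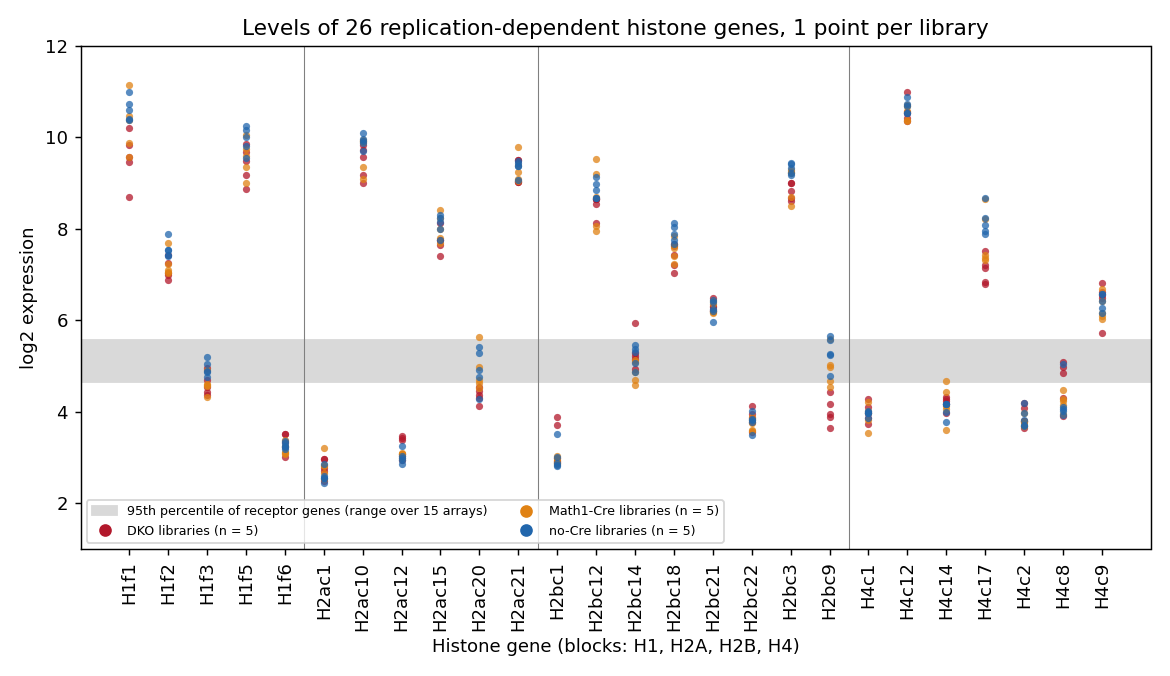
Log2 expression of each of the 26 histone genes in the 15 libraries (1 point per library, coloured by labelled group; n = 5 per group), in blocks for H1, H2A, H2B and H4. The grey band is the range over arrays of the background limit, 4.65 to 5.58; 13 genes lie above their array's limit in every library and 9 lie below it in every library.

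DKO against no-Cre combines Cre and the loss of both kinases. Over 15 libraries 1 of the 26 histone genes, H2bc9, was lower at an adjusted p under 0.05 (limma, Benjamini-Hochberg over all 22180 genes), and that threshold was passed by 0.0721% of all genes. At an unadjusted p under 0.05, 11 were lower and 1 (H2ac12, at background) was higher, beside 11.9% of all genes lower. Among the 11 lower genes, H1f3, H2ac20 and H2bc9 were at background in every DKO library. The median difference of the 26 genes was -0.12 on the log2 scale, against -0.02 over all genes. Over the 11 libraries 5 of 26 were lower at adjusted p under 0.05 and 0 higher: H2bc3, H2bc18, H2ac10, H2bc9 and H4c17. That threshold was passed by 1.08% of all genes. At unadjusted p, 13 were lower and 2 (H2ac12 and H2bc1, both at background) higher, beside 8.1% of all genes lower. Among the 13 lower genes, H1f3 and H2bc9 were at background in every DKO library. The median was -0.28 against -0.02. The number of called histone genes turned on single libraries: over 15 libraries it was 5 without no-Cre 4, and it was 0 when no-Cre 1, 2, 3 or 5, Math1-Cre 2 or DKO 2 or 3 was left out. Over 11 it was 8 without no-Cre 4 and 3 when no-Cre 5 was left out; leaving out DKO 2 or 4 or no-Cre 1, 2 or 3 gave 1.

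DKO against Math1-Cre asks what the loss of the alpha isoform adds. Over 15 libraries H2bc9 again was the 1 gene of 26 past adjusted p 0.05, beside 0.55% of all genes. At unadjusted p, 4 were lower and 1 (H2bc14) higher, beside 15.4% of all genes lower, and the median was -0.01 against -0.05. Over the 11 libraries 1 of 26 was past adjusted p 0.05 (H2bc3, lower), beside 0.541% of all genes; 11 were lower and 2 higher (H2bc1 and H2bc14) at unadjusted p, beside 10.3% lower, and the median was -0.15 against -0.06. Without no-Cre 4 this count was 3, and leaving out no-Cre 2, Math1-Cre 3 or 5 or DKO 2 or 4 gave 0. The comparison shares its DKO libraries with the preceding one.

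Math1-Cre against no-Cre asks for the effect of Cre and loss of the beta isoform. No histone gene passed adjusted p 0.05 in limma over 15 or 11 libraries, where 0% of all genes did. Over 15 libraries 4 were lower at unadjusted p (H1f2, H1f3, H2bc3 and H2bc18, by 0.32 to 0.36), beside 1.03% of all genes. Of these, H1f3 was above background in 1 of 5 Math1-Cre and 3 of 5 no-Cre libraries. The median was -0.11 against 0.02. Over 11 libraries 1 was lower (H2bc14) and 1 higher (H4c14, at background), beside 0.568% lower, and the median was -0.02 against 0.03. Math1-Cre 1 and 2, with the low Gsk3a row, are the libraries that the 11 leave out of this group.

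**Figure D2:**
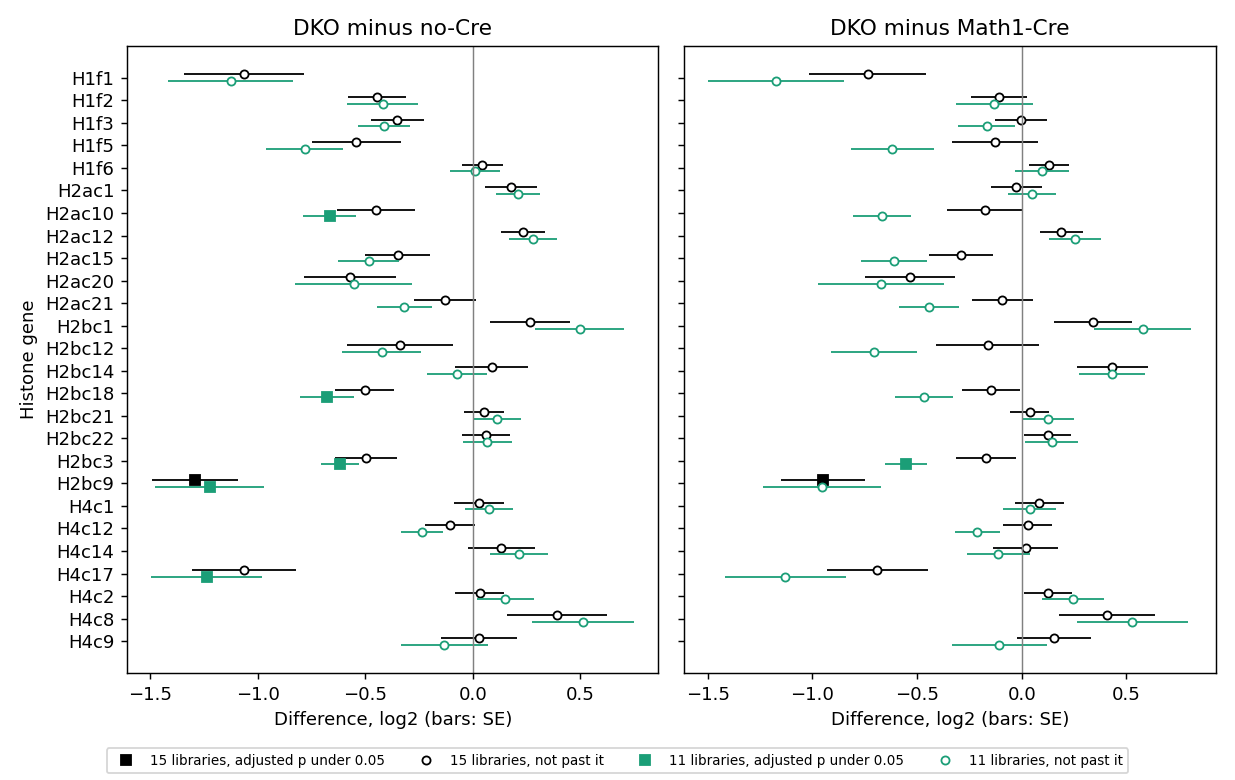
Difference in log2 expression of each histone gene, DKO minus no-Cre (left) and DKO minus Math1-Cre (right), with bars for the standard error of the limma fit; black over 15 libraries, green over the 11. Filled squares are past adjusted p 0.05: H2bc9 in both panels over 15 libraries, 5 genes on the left and H2bc3 on the right over 11.

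The linker histones bind DNA where it enters and leaves the nucleosome. In both sets 4 of 5 members were lower in DKO than in no-Cre at unadjusted p. Beside this stood 11.9% of all genes over 15 libraries and 8.1% over 11, and 0 members passed the adjusted threshold in limma. Of the 4, H1f3 was at background in every DKO library. H1f1 read 9.83, 8.70, 9.46, 9.57 and 10.21 in DKO replicates 1 to 5, 9.57, 9.88, 10.47, 10.37 and 11.15 in the Math1-Cre controls and 11.001, 10.73, 10.59, 10.37 and 10.40 in the no-Cre controls. Every DKO library was below every no-Cre library, while the Math1-Cre libraries spanned both, with replicates 1 and 2 the lowest of that group. The means were 9.55 ± 0.56 in DKO and 10.62 ± 0.26 in no-Cre (SD, n = 5), a difference of -1.06 (SE 0.28, limma adjusted p = 0.102), and -1.13 over 11 libraries (adjusted p = 0.107). H1f2, the member with the smallest difference among those above background, read 7.26, 6.98, 6.89, 7.03 and 7.42 in DKO, 7.06, 7.23, 7.03, 7.11 and 7.68 in Math1-Cre and 7.88, 7.55, 7.40, 7.44 and 7.54 in no-Cre. DKO 5 overlapped the no-Cre range, and the difference of -0.45 (SE 0.13) had an adjusted p of 0.133 in limma. H1f5 differed by -0.54 over 15 libraries (adjusted p = 0.204) and by -0.78 over 11 (adjusted p = 0.0664). H1f6, the testis linker histone, stayed between 3.00 and 3.51, at background.

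H2A and H2B form the dimers that flank the nucleosome core, and H2ac10 was the 1 H2A gene of 6 to pass the threshold. H2ac10 read 9.73, 9.00, 9.84, 9.18 and 9.57 in DKO, 9.08, 9.36, 9.92, 9.94 and 9.89 in Math1-Cre and 10.09, 9.93, 9.88, 9.96 and 9.71 in no-Cre. The 5 lowest values were those of DKO 2, 4 and 5 and of Math1-Cre 1 and 2, while DKO 1 and 3 lay inside the no-Cre range. The difference between DKO and no-Cre was -0.45 (SE 0.18, limma adjusted p = 0.221) over 15 libraries and -0.66 (SE 0.12, adjusted p = 0.0257), or 1.58-fold lower, over 11. The call over 11 was lost when DKO 2 or 4 or no-Cre 1, 2 or 3 was left out. It was also lost with quantile normalization, in a fit of only the 2 groups and with the replicate number as a block. The limma adjusted p ran from 0.00515 to 0.223 over 19 alternatives.

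H2ac21 differed least among the H2A genes above background. It read 9.51, 9.03, 9.51, 9.03 and 9.04 in DKO, 9.06, 9.09, 9.25, 9.79 and 9.40 in Math1-Cre and 9.38, 9.45, 9.49, 9.06 and 9.38 in no-Cre. Values fell into a lower set at 9.03 to 9.09 (DKO 2, 4 and 5, Math1-Cre 1 and 2, no-Cre 4) and a higher set from 9.25 up. The labelled groups overlapped, with a difference of -0.13 (SE 0.14, limma adjusted p = 0.666) over 15 libraries and -0.32 (adjusted p = 0.325) over 11. H2ac15 and H2ac20 were lower at unadjusted p over 15 libraries, by 0.35 and 0.57, with adjusted p of 0.254 and 0.201, and H2ac20 was at background in all 5 DKO libraries.

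Of the 8 H2B genes, 3 fell in DKO against no-Cre over the 11 libraries and 1 of them, H2bc9, over all 15. H2bc9 read 3.95, 3.64, 3.88, 4.17 and 4.44 in DKO, 4.68, 5.02, 5.59, 4.54 and 4.98 in Math1-Cre and 5.25, 5.25, 5.65, 4.79 and 5.58 in no-Cre. It was the 1 histone gene with all DKO libraries below all libraries of both control groups, and DKO 1 and 3, with a high Gsk3a row, were as low as the other DKO libraries. The means were 4.01 ± 0.30 in DKO, 4.96 ± 0.40 in Math1-Cre and 5.31 ± 0.34 in no-Cre (SD, n = 5). DKO minus no-Cre was -1.29 (SE 0.20, limma adjusted p = 0.0318) and DKO minus Math1-Cre -0.95 (SE 0.20, adjusted p = 0.0487). Over 11 libraries these were -1.22 (adjusted p = 0.0451) and -0.95 (adjusted p = 0.173).

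The size of the H2bc9 difference is bounded only weakly, because the gene was at background in every DKO library and above it in 4 of 5 no-Cre and 3 of 5 Math1-Cre libraries. Against the mean background limit of the DKO arrays in place of their H2bc9 values, the no-Cre mean was 1.03-fold higher. The Math1-Cre mean was below that limit. The limit itself was 4.90 and 4.95 in DKO 1 and 2 and 5.58, 5.39 and 5.52 in DKO 3, 4 and 5, the arrays of narrow spread. The 1.03-fold therefore need not be a minimum. On the arrays of narrow spread, where the median receptor gene read 3.97 to 4.11 against 3.50 to 3.70 elsewhere, H2bc9 read 3.88, 4.17 and 4.44 in DKO and 4.79 in the no-Cre library. On the other arrays it read 3.95 and 3.64 in DKO and 5.25 to 5.65 in no-Cre. The call was lost in both comparisons with array spread as a covariate, in a fit of only the 2 groups, and without the 3 replicate 5 libraries, whose labels share a code. In DKO against no-Cre over 15 libraries it was also lost when no-Cre 1, 2, 3 or 5, Math1-Cre 2 or DKO 2 or 3 was left out, with adjusted p from 0.00816 to 0.0968 and differences from -1.42 to -1.19 over 23 alternatives. Against Math1-Cre it was lost whichever library was left out, except DKO 5 and no-Cre 4. There it was also lost with the replicate number as a block (highest limma adjusted p over the alternatives 0.262). Over 11 libraries against no-Cre it was lost when no-Cre 1, 2, 3 or 5, Math1-Cre 5 or DKO 2 or 4 was left out. The same held with array spread as a covariate, with the replicate number as a block and without the replicate 5 libraries (highest limma adjusted p 0.149).

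H2bc3 fell over the 11 libraries against both controls, and the call against no-Cre was kept whichever single library was left out. That call was lost in 2 of 19 alternatives: without the 3 replicate 5 libraries (limma adjusted p = 0.0554) and with the replicate number as a block (0.0696), the highest of a range that starts at 0.00195. H2bc3 read 9.00, 8.60, 9.00, 8.82 and 8.67 in DKO, 8.50, 8.70, 9.24, 9.28 and 9.23 in Math1-Cre and 9.43, 9.32, 9.22, 9.42 and 9.17 in no-Cre. Every DKO library was below every no-Cre library, and Math1-Cre 1 and 2 lay with the lowest DKO libraries. DKO minus no-Cre was -0.50 (SE 0.14, limma adjusted p = 0.125) over 15 libraries and -0.62 (SE 0.09, adjusted p = 0.00635), or 1.53-fold lower, over 11. DKO minus Math1-Cre was -0.17 (adjusted p = 0.479) and -0.55 (adjusted p = 0.0326). The latter call was lost when no-Cre 2, Math1-Cre 3, 4 or 5 or DKO 2, 4 or 5 was left out. Quantile normalization, a fit of only the 2 groups, the replicate block and leaving out the replicate 5 libraries also lost it. The limma adjusted p went up to 0.256.

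H2bc18, on chromosome 3, fell against no-Cre over the 11 libraries. It read 7.63, 7.03, 7.68, 7.21 and 7.42 in DKO, 7.23, 7.40, 7.59, 7.64 and 7.84 in Math1-Cre and 8.12, 8.04, 7.90, 7.67 and 7.76 in no-Cre. DKO 3 just reached the lowest no-Cre library. The difference from no-Cre was -0.50 (SE 0.14, limma adjusted p = 0.115) over 15 libraries and -0.68 (SE 0.12, adjusted p = 0.0252), or 1.60-fold lower, over 11. This call was lost when DKO 2 or 4 or no-Cre 1, 2 or 3 was left out. It was also lost in a fit of only the 2 groups, with array spread as a covariate and with the replicate number as a block. The limma adjusted p ran from 0.0111 to 0.172.

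The other H2B genes did not pass the threshold. H2bc12 read 7.94 to 9.54, with every DKO library below every no-Cre library and Math1-Cre 1 and 2 the lowest of all, and differed by -0.34 (limma adjusted p = 0.488). H2bc21, known as the H2B variant of olfactory neurons, differed least: 6.20 to 6.49 in DKO, 6.16 to 6.42 in Math1-Cre and 5.97 to 6.45 in no-Cre, with DKO 4 and no-Cre 1 the highest. Its difference of 0.05 (SE 0.09, adjusted p = 0.800) changed sign to -0.03 with arrays centred on their median.

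H4 forms a tetramer with H3 at the core of the nucleosome. Of its 7 genes 1, H4c17, passed the threshold over 11 libraries and 0 over 15. H4c1, H4c2, H4c8 and H4c14 were at background in all libraries, so a fall could not be read for them. H4c12, above background, differed by -0.10 (limma adjusted p = 0.663) over 15 libraries and -0.24 (adjusted p = 0.334) over 11. H4c17 read 7.51, 6.79, 7.21, 6.85 and 7.15 in DKO, 7.43, 7.35, 8.22, 7.31 and 8.64 in Math1-Cre and 8.66, 8.24, 8.08, 7.88 and 7.95 in no-Cre. All DKO libraries were below all no-Cre libraries, and Math1-Cre 1, 2 and 4 lay inside the DKO range. DKO minus no-Cre was -1.06 (SE 0.24, limma adjusted p = 0.0772) over 15 libraries and -1.24 (SE 0.26, adjusted p = 0.0454), or 2.36-fold lower, over 11. That call was lost when no-Cre 1, 2, 3 or 5, Math1-Cre 3 or DKO 2, 4 or 5 was left out, and without the replicate 5 libraries. It was also lost with array spread as a covariate, with quantile normalization and with the replicate number as a block. The limma adjusted p ran from 0.0113 to 0.193.

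H4c9, whose printed promoter shares a run with that of H4c17, read 6.81, 5.72, 6.54, 6.48 and 6.62 in DKO, 6.16, 6.10, 6.41, 6.69 and 6.03 in Math1-Cre and 6.43, 6.58, 6.57, 6.17 and 6.27 in no-Cre. The groups overlapped throughout, DKO 2 was the lowest and DKO 1 the highest of the 15. The difference from no-Cre was 0.03 (SE 0.18, limma adjusted p = 0.946) over 15 libraries, -0.05 with arrays centred on their median, and -0.13 (adjusted p = 0.822) over 11. H4c8, at background, read 4.98, 4.85, 5.08 and 5.04 on the arrays of narrow spread (DKO 3, 4 and 5 and no-Cre 4) and 3.90 to 4.48 on the others. What part array spread has in values near background was not tested for single genes beyond the fit with spread as a covariate.

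**Figure D3:**
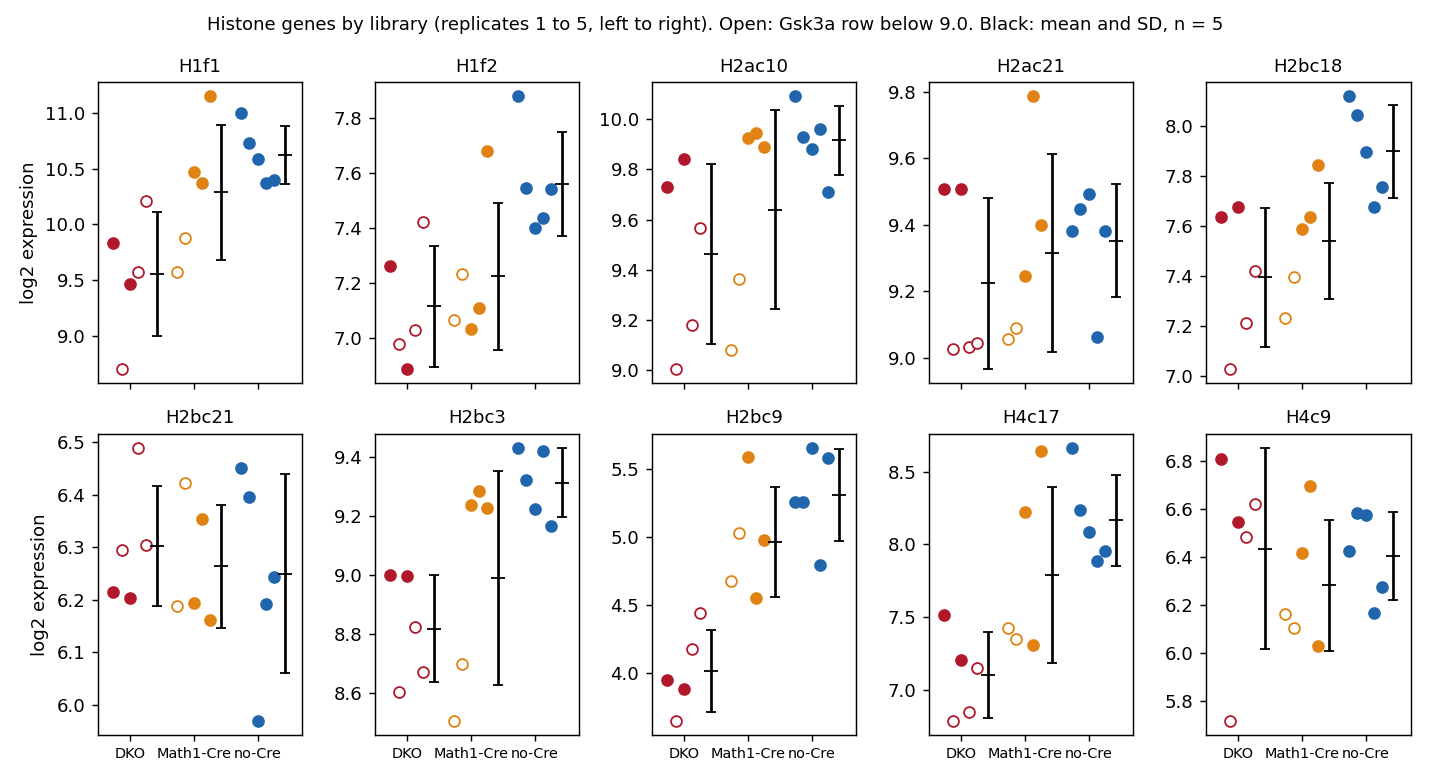
Log2 expression of 10 histone genes in each library, replicates 1 to 5 from left to right within each group; open points are the 5 libraries with a Gsk3a row below 9.0, and black bars are the group mean and SD (n = 5). For H2bc9 all DKO points lie below all control points, and for H2ac10, H2bc3 and H2bc18 the open points lie lowest; the vertical axes differ between panels and do not start at 0.

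All 12 H3 gene symbols of the annotation stood only in rows shared by several histone genes, so no single H3 gene could be read. There were 37 such rows for the histone series, with 34 distinct sets of values, and 14 were above background in all libraries and 8 in none. In limma over all 41345 rows, a fit added after the data were seen, 0 of the 37 passed adjusted p 0.05 in any of the 3 comparisons over 15 or 11 libraries. In DKO against no-Cre over 15 libraries 8 were lower and 0 higher at unadjusted p, with a median of -0.08; 0.0242% of all rows were past the adjusted threshold and 7.88% lower at unadjusted p. Over 11 libraries 7 were lower and 0 higher, with a median of -0.14, beside 0.302% and 5.54%. In DKO against Math1-Cre over 15 libraries 3 were lower and 1 higher at unadjusted p, beside 4276 of all 41345 rows lower and 3926 higher. Over 11 libraries 4 were lower and 0 higher, beside 3093 of all rows lower and 2405 higher. In Math1-Cre against no-Cre over 15 libraries 4 were lower and 0 higher, beside 453 of all rows lower and 751 higher.

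Several shared rows had a high signal. A row shared by 12 H2B symbols, among them H2bc6, had means of 12.17 ± 0.18 in DKO, 12.06 ± 0.21 in Math1-Cre and 12.13 ± 0.08 in no-Cre (SD, n = 5). A row of 8 H3 symbols with H3c15 had means of 8.36 ± 0.24, 8.20 ± 0.31 and 8.38 ± 0.10 in the same order. Among the rows lower at unadjusted p was a row of 8 H3 symbols with H3c13 (-0.48, limma adjusted p = 0.217), above background in 13 libraries. Another of 8 with H3c15 (-0.52, adjusted p = 0.27) was above it in 9. A row of 6 H4 symbols with H4c17 was also lower (-0.43). Some H2A rows were above background in all libraries. Over 15 and 11 libraries, a row of 10 symbols with H2ac22 differed by -0.32 and -0.48 (adjusted p = 0.392 and 0.238). A row of 10 with H2ac4 differed by -0.50 and -0.73 (adjusted p = 0.351 and 0.148), and a row of 12 with H2ac23 by -0.03 and -0.08. In DKO against Math1-Cre over 11 libraries these H2A rows differed by -0.51, -0.95 and -0.13 in the same order. Their limma adjusted p were 0.24, 0.119 and 0.61.

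The libraries separated by the Gsk3a row as well as by label for part of the family. With the row below 9.0 were DKO 2, 4 and 5 and Math1-Cre 1 and 2; above it were the other 10. All 5 low-row libraries were below all 10 others for 4 of the 26 genes, beside 0.843% of all genes: H1f5 (8.86 to 9.48 against 9.55 to 10.24), H2ac10 (9.00 to 9.57 against 9.71 to 10.09), H2bc3 (8.50 to 8.82 against 9.00 to 9.43) and H2bc18 (7.03 to 7.42 against 7.59 to 8.12). H2ac21 came near this, with 9.03 to 9.09 in the low-row libraries and no-Cre 4 (9.06) the 1 library of the others within that range. Among the rows shared by several histone genes, those with H2ac4 (6.48 to 7.00 against 7.22 to 8.04) and H2ac22 (10.11 to 10.56 against 10.60 to 10.99) also separated. The rest of the 37 shared rows overlapped, and the share over all rows was not counted. By label, all DKO were below all no-Cre libraries for 5 genes (H1f1, H2bc3, H2bc9, H2bc12 and H4c17), beside 1.96% of all genes, and below all Math1-Cre libraries for 1 (H2bc9), beside 5.51%. These libraries were sorted by a measured row and are not groups of the study, so no test was made.

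Over the 13 genes above background, Math1-Cre 1 was below the mean over the 15 libraries for 13, Math1-Cre 2 and DKO 2 for 12, DKO 4 for 11 and DKO 5 for 9. DKO 1, DKO 3 and no-Cre 4 were below it for 7 each, Math1-Cre 3 for 5, Math1-Cre 4 and no-Cre 3 for 3, Math1-Cre 5 and no-Cre 5 for 2, and no-Cre 1 and 2 for 0. DKO 2 was the lowest library for 9 of the 26 genes, among them H1f6 and H2bc9, which were at background there. How often each library was lowest or below the mean over all genes was not counted. The median deviation of the DNA replication genes was -0.43 in DKO 2, -0.35 in Math1-Cre 2, -0.33 in Math1-Cre 1 and -0.30 in DKO 4. In DKO 5 it was -0.09, nearer to no-Cre 4 (-0.03) and DKO 3 (-0.01); in the other 8 libraries it was above 0, up to 0.39 in no-Cre 1. The part of cell number in this was not tested.

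**Figure D4:**
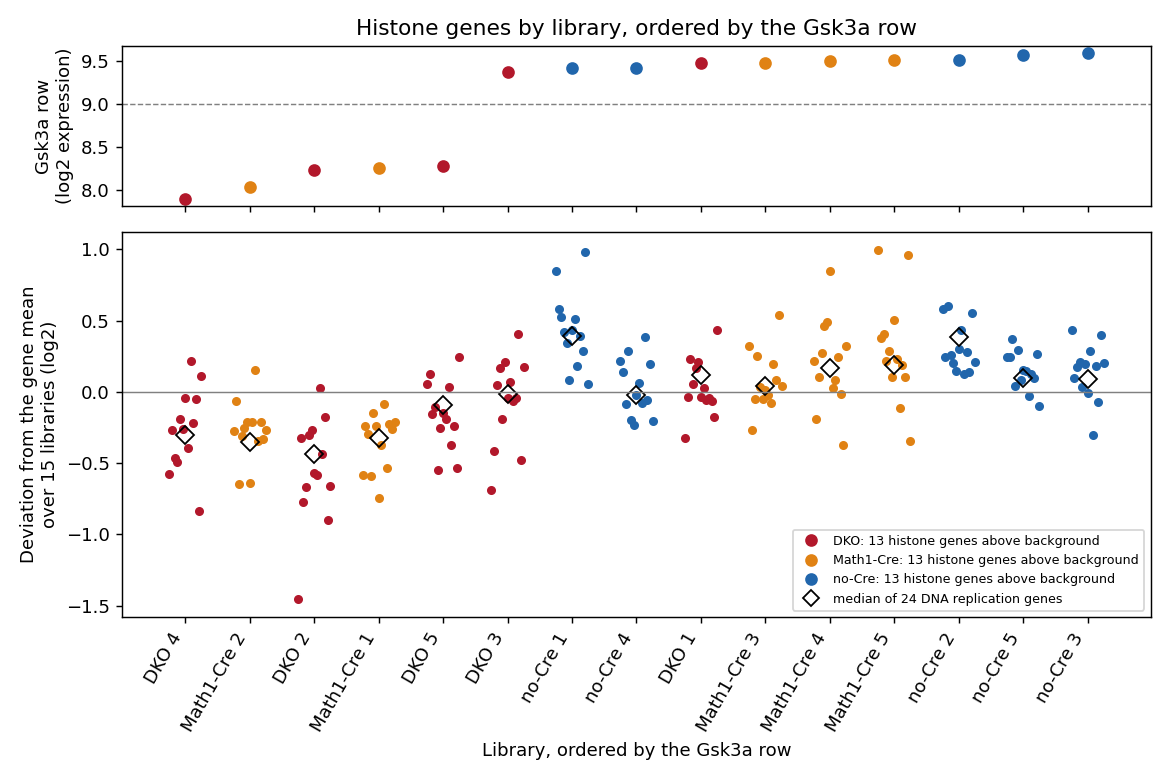
Libraries in order of the Gsk3a row, which is plotted above on the log2 scale with a dashed line at 9.0; below, each point is the deviation of 1 of 13 histone genes above background from its mean over the 15 libraries, and diamonds are the median deviation of 24 DNA replication genes. The 5 libraries on the left hold most of the points below 0, and Math1-Cre 1 has all 13 there.

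The machinery that makes and ends histone mRNA was measured beside the genes themselves. For this and the lists that follow, the shares over all genes in DKO against no-Cre are 0.0721% past adjusted p, 11.9% lower at unadjusted p and 54.1% with a negative difference over 15 libraries, and 1.08%, 8.1% and 55.9% over 11. Of 13 genes for 3′ end processing and decay 0 passed adjusted p 0.05 in DKO against no-Cre over 15 or 11 libraries (limma), with 2 lower and 0 higher at unadjusted p in each and medians of -0.15 and -0.14. Slbp, which binds the stem-loop, differed by -0.22 (adjusted p = 0.272) over 15 libraries, and Lsm11, a subunit of the U7 particle that guides cleavage, by -0.21 (adjusted p = 0.261). Of 11 genes of the histone locus body and its transcription factors, 0 passed over 15 libraries (7 lower, 0 higher at unadjusted p) and 1 over 11, E2f2 (-0.64, adjusted p = 0.0171), which was above background in 8 libraries. Npat, the coactivator of histone transcription, differed by -0.31 (adjusted p = 0.126) over 15 and -0.25 (adjusted p = 0.333) over 11.

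Histone chaperones, which carry histones to the replication fork, had 0 of 13 past adjusted p in either set and 7 and 8 lower at unadjusted p; Chaf1a, a subunit of chromatin assembly factor 1, differed by -0.43 (limma adjusted p = 0.263) and -0.64 (adjusted p = 0.189). Replication-independent histones, made through the whole cell cycle, had 0 of 12 past it and 2 and 4 lower at unadjusted p; H2az2 differed by -0.36 (adjusted p = 0.125) and -0.41 (adjusted p = 0.165). The medians were -0.23 and -0.30 for the chaperones and -0.19 in both sets for these histones.

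Genes of DNA replication and mitosis were read beside the histone genes. Of 24 DNA replication genes 0 passed over 15 libraries and 3 over 11, all lower: Mcm3, a subunit of the replicative helicase (-0.84, limma adjusted p = 0.0280), Cdc6, which loads it (-0.77, adjusted p = 0.0409), and the nuclease gene Fen1 (-0.53, adjusted p = 0.0135), whose row was at background in every library. All 24 differences were negative in both sets (54.1% and 55.9% of all genes were), with medians of -0.34 and -0.46, and 15 and 22 were lower at unadjusted p (11.9% and 8.1% of all genes). Of 19 mitotic genes 0 passed over 15 and 7 over 11, all lower, with medians of -0.53 and -0.64. The mean level of the 24 replication genes was 7.08 to 7.58 in DKO, 7.12 to 7.69 in Math1-Cre and 7.45 to 7.85 in no-Cre.

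Markers of cell types were read in the same libraries. Of 8 granule progenitor markers, 3 passed the threshold in DKO against no-Cre over the 11 libraries, all lower: Atoh1, Mycn and Nhlh1. Over 15 libraries 0 passed. Differences were negative for 6 of 8 in both sets, with medians of -0.19 over 15 libraries and -0.50 over 11. Zic1 (0.01 and 0.05) and Zic2 (0.06 and 0.01) were the exceptions. The mean level of the list was 8.50 to 8.99 in DKO, 8.46 to 9.01 in Math1-Cre and 8.83 to 9.20 in no-Cre. Atoh1 read 7.81 to 8.65 in DKO and 8.94 to 9.31 in no-Cre. Of 7 endothelial markers 0 passed, all 7 differences were negative over 15 libraries (median -0.26), and the mean level was 7.39 to 7.70 in DKO and 7.45 to 8.03 in no-Cre. Of 6 choroid plexus and ependymal markers 0 passed, all 6 were negative (median -0.42), and the mean level was 6.95 to 7.91 in DKO and 7.61 to 7.99 in no-Cre. For Purkinje cells 4 of 5 were negative (median -0.05) and for astrocytes 3 of 7 (median 0.01), with 0 past the threshold in both.

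Of 6 markers of differentiating granule neurons 0 passed over 15 libraries and 2 over 11, in opposite directions. Gabra6, a GABA receptor subunit of maturing granule neurons, was higher in DKO (1.70, limma adjusted p = 0.00239), and Grin2c, an NMDA receptor subunit of the same stage, was lower (-1.02, adjusted p = 0.0123). Both were near background: Gabra6 was above it in 4 libraries and Grin2c in 5. The mean level of the list was 7.03 to 7.32 in DKO, 7.19 to 7.31 in Math1-Cre and 7.09 to 7.40 in no-Cre. In the remaining lists 0 passed over 15 or 11 libraries. Differences were negative over 15 and 11 libraries for 6 and 7 of 7 microglial markers, 6 and 5 of 6 of the oligodendrocyte lineage, 6 and 4 of 7 of meninges and pericytes, 4 and 4 of 6 of interneurons and 7 and 6 of 8 of adjoining hindbrain. The part of cell composition in the histone differences was not tested.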

How the data were processed

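Labelled RNA from 15 libraries was read on Affymetrix whole-transcript arrays, 1 per library. The values deposited by the authors are log2 expression per array row, made with RMA, Partek 6.6 and genome build mm9 per the submitters' processing notes; order and settings were not given there or elsewhere in the sources. They were used as deposited. Low values are compressed, so a difference near background may understate a change. Some values near background also went with the array spread, as for H4c8, so such a difference need not be a minimum.

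Of 41345 rows, 23521 had 1 gene symbol, 1814 several and 16010 none in the platform annotation, and the row with the highest mean stood for each of 22180 genes. All 26 histone genes matched the RefSeq gene table by gene identifier. RefSeq promoters are on GRCm38.p6, not mm9, and 2 genes (H2bc21 and H4c14) have none printed. Members, lists and the 11-library fit were chosen with earlier results of these data known.

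limma 3.58.1 (R 4.3.3) fitted 1 mean per group to all genes, with eBayes, two-sided p-values and Benjamini-Hochberg adjustment over all genes at 0.05; it had 12 residual degrees of freedom over 15 libraries and 8 over 11. The script was tested on simulated data. Full values are given for histone genes past the threshold in any comparison, and for the 1 with the widest and the 1 with the narrowest DKO minus no-Cre difference in each family among those above background in all libraries. Medians over lists are descriptions without a test. Alternatives were a filter on low rows, quantile normalization, centring, trended moderation, only the groups compared, the replicate number as a block, array spread as a covariate, other background limits, and leaving out libraries.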

Additional observations from a re-analysis of the deposited data

Results flagged for a closer look

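H2ac21 in no-Cre 4 read 9.06, apart from the other no-Cre libraries, the nearest of which read 9.38. The gap was 0.74 of the range of the group, past the limit for a single outlying value among 5. It was the 1 such value among 30 sets of 5 libraries tested (10 histone genes in 3 groups), and chance alone gives about 1 in 20. The array of no-Cre 4 had the narrowest spread of the 15, with an interquartile range of 3.43 log2 units.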

How the results depend on the processing

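The median difference of the histone genes was negative in 123 of 126 alternatives over the 3 comparisons and both library sets, and moved by less than the spread between replicates in 122. The alternatives refit the same data, and the median over all genes was also negative in both DKO comparisons as deposited. Leaving out rows under the 30th percentile of mean level kept 21 of the 26 genes. The histone median was then -0.35 for DKO minus no-Cre over 15 libraries (all genes -0.06) and -0.42 over 11 (all genes -0.06). For DKO minus Math1-Cre over 11 it was -0.44 (all genes -0.11). Leaving out 1 library gave -0.21 to -0.07 and -0.33 to -0.25 for DKO minus no-Cre over 15 and 11, and -0.08 to 0.04 and -0.26 to -0.11 for DKO minus Math1-Cre. The count of called genes moved more. For DKO minus no-Cre over 15 libraries it was 5 with centring on the array median, 0 with only the 2 groups compared, with array spread as a covariate or without the 3 replicate 5 libraries, whose labels share a code, and 0 to 5 leaving out 1 library. For DKO minus Math1-Cre over 15 it was 0 with only the 2 groups, array spread or no replicate 5 libraries, and 0 to 1 leaving out 1 library. For DKO minus no-Cre over 11 it was 3 with quantile normalization, with only the 2 groups or without the replicate 5 libraries, 2 with array spread, and 1 to 8 leaving out 1 library. For DKO minus Math1-Cre over 11 it was 0 with quantile normalization or only the 2 groups, 2 with centring or trended and robust moderation, and 0 to 3 leaving out 1 library. The 3 alternatives with a median at or above 0 were for DKO minus Math1-Cre over 15 libraries, without DKO 1 (0.04), Math1-Cre 4 (0.03) or Math1-Cre 5 (0.0017). No called difference changed sign; differences near 0 that were not called, such as those of H2bc21 and H4c9 with centring, did. Over all genes, DKO minus no-Cre over 15 libraries gave 4 higher and 12 lower as deposited, 28 and 626 with centring, 13 and 44 with quantile normalization, 2 calls in all with array spread and 1546 without no-Cre 4; over 11 it gave 97 and 142, 78 and 219 with centring, 178 with array spread and 1060 without no-Cre 4. DKO minus Math1-Cre gave 29 and 93 over 15, 101 and 1666 with centring, and 64 and 56 over 11, 52 and 71 with centring. Near background, a limit at the 90th or 99th percentile of receptor genes left 8 or 12 genes at background in all libraries. The rows shared by several genes were fitted once.

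With the replicate number as a block, the count of called histone genes was 1 for DKO minus no-Cre and 0 for DKO minus Math1-Cre over 15 libraries, and 0 for both over 11; over all genes it was 6 and 0 over 15 and 42 and 25 over 11. The labels tie the number 5 to a shared code and the numbers 1 to 4 to nothing further. Deviations of same-numbered libraries correlated at -0.303 to 0.299, and 3 of 15 libraries correlated best with their own number.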

Other observations

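Among the genes with a row of their own are 2 divergent H2A and H2B pairs, in which the 2 genes start from opposite strands of a shared stretch. In neither pair were both genes above background. H2ac12 and H2bc12 start 178 bases apart: H2ac12 stayed at 2.85 to 3.46, at background in all libraries, and H2bc12 read 7.94 to 9.54. H2ac1 and H2bc1, the testis pair, start 281 bases apart and were both at background (2.45 to 3.20 and 2.81 to 3.90). H2ac21 has a second row that read 2.92 to 3.53 and differed by -0.23 between DKO and no-Cre, against -0.13 for the row used.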
